A study of Saccharomyces cerevisiae with 20 samples.

Results

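The genes described here encode 10 cyclins of budding yeast: the G1 cyclins *CLN1* (YMR199W), *CLN2* (YPL256C), and *CLN3* (YAL040C), the S phase cyclins *CLB5* (YPR120C) and *CLB6* (YGR109C), the mitotic cyclins *CLB1* (YGR108W), *CLB2* (YPR119W), *CLB3* (YDL155W), and *CLB4* (YLR210W), and *PCL1* (YNL289W), a G1 cyclin that binds another kinase. They were chosen by name, as 10 of the 6575 ORFs that were counted, and all 10 passed the filter on low counts that left 5772 ORFs to be tested. Their mRNA was measured by RNA-seq in 5 overexpression strains, *TOS8*, *SFL1*, *HEK2*, *SAN1*, and *ROF1*, with 4 replicate samples each. All 5 were made from F45, a strain whose colonies form a complex, biofilm-like structure, by adding a low copy number (CEN) plasmid that carries an extra copy of the named gene under its own promoter. They share the F45 genotype (*MAT*a, *ho* deleted with *hphMX6*, *SPS2* fused to *EGFP* and marked with *natMX4*, and a serine auxotrophy that was not mapped) and differ in the plasmid, with 1 strain per plasmid.

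*TOS8* encodes a homeodomain protein, *SFL1* a repressor of flocculation genes, *HEK2* an RNA-binding protein, *SAN1* a ubiquitin ligase of the nucleus, and *ROF1* (YHR177W) a regulator of the WOPR family. Colonies grew for 4 d on YPD with 2% glucose and G418 at 30°, whole colonies were scraped off, several colonies were pooled per sample, and stranded mRNA libraries were made. The F45 strain with an empty vector was not analysed here, so each value compares overexpression strains with each other and none gives a change relative to F45. Whole colonies hold dividing and resting cells in unknown shares, and fewer cells of a type cannot be told apart from less RNA per cell in these data.

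Cyclins are the regulatory subunits of cyclin-dependent kinases, and in yeast most of them are made in waves that order the cell cycle. Cln3, present through G1, acts with the kinase Cdc28 to release the transcription factor SBF (Swi4 and Swi6) from its inhibitor Whi5, and SBF and its relative MBF (Mbp1 and Swi6) then switch on *CLN1*, *CLN2*, *PCL1*, *CLB5*, and *CLB6*. Cln1 and Cln2 start budding, Clb5 and Clb6 start DNA replication, Clb3 and Clb4 act in spindle assembly, and Clb1 and Clb2, made late under the factors Mcm1, Fkh2, and Ndd1, drive mitosis. Pcl1 pairs with the kinase Pho85 and takes part in G1 with Cln1 and Cln2.

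The upstream sequences of the genes are shown first, since these waves are set at the promoters. In the R64 reference genome, which has the build and coordinates of the count table, the 800 bases before each start codon were searched on both strands for short motifs: CNCGAAA, bound by SBF (SCB), ACGCGT, bound by MBF (MCB), GTAAACA, bound by forkhead factors, and CCNNNNNNGG, the outer bases of the Mcm1 site. SCB was found in 5 of the 10 windows, against 29.3% of the windows of 6556 ORFs, MCB in 2 of 10 against 7.32%, the forkhead motif in 5 of 10 against 15%, and the Mcm1 letters in 9 of 10 against 69.9%. Windows can reach into a neighbouring gene, matches of different motifs can overlap, and a match says only that the letters are there. *CLN2* had 3 SCB matches and *PCL1* had 4, and the sequences below show them crowded within 200 bases. In each, the capitals mark every match of the 4 motifs in the window with the most matches, read 5′ to 3′ on the strand of the gene.
*CLN2*: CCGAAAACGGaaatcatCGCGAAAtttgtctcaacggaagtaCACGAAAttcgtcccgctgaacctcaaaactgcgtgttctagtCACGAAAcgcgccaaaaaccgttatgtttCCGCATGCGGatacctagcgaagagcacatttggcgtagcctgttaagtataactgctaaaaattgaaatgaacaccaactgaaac
*PCL1*: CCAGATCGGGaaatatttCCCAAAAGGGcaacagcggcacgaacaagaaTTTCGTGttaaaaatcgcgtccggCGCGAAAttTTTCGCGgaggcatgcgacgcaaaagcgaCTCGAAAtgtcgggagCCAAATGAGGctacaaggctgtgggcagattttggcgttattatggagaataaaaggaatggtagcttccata
These windows lie at chrXVI:67038-67237 (minus strand), from 623 to 424 bases before the start codon of *CLN2*, and at chrXIV:87521-87720 (plus strand), from 376 to 177 bases before that of *PCL1*. Both also hold stretches with the loose Mcm1 letters.

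*CLN1* had SCB, MCB, forkhead, and Mcm1 letters in a single window of 200 bases, and *CLB6* had 2 MCB matches beside a forkhead match.
*CLN1*: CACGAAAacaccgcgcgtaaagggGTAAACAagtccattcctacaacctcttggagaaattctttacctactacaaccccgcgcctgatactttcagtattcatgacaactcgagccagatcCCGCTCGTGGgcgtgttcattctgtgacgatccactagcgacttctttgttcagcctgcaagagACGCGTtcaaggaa
*CLB6*: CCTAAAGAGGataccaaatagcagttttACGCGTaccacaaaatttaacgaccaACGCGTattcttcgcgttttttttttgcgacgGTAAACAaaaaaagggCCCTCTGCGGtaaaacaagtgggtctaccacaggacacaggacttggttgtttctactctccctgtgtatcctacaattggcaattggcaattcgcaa
The *CLN1* window lies at chrXIII:661852-662051 (plus strand), from 792 to 593 bases before the start codon, and the *CLB6* window at chrVII:706733-706932 (minus strand), from 431 to 232 bases before it. *CLN1* has 2 more SCB matches nearer its start codon, at 452 and 435 bases before it, outside the window shown.

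*CLB1* and *CLB2*, which are usually transcribed together in G2 and M, each had 1 forkhead match next to the Mcm1 letters.
*CLB1*: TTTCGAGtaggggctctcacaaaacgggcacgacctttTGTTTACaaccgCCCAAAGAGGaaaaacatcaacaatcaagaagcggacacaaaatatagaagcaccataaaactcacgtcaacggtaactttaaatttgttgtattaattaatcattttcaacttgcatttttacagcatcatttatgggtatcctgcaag
*CLB2*: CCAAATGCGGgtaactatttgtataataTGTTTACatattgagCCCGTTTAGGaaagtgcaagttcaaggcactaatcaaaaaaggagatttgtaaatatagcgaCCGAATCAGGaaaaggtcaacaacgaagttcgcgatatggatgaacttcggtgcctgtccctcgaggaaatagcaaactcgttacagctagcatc
The *CLB1* window lies at chrVII:702970-703169 (plus strand), from 666 to 467 bases before the start codon, and the *CLB2* window at chrXVI:770861-771060 (plus strand), from 792 to 593 bases before it. *CLB1* alone of this pair also had an SCB match, on the reverse strand at the start of its window. No motif of the 4 was found before *CLB3*, and *CLN3* and *CLB5* had none of SCB, MCB, or the forkhead letters. The sequences are those of the reference strain, not of F45.

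Each of the 10 genes is an uninterrupted coding region of 840 (*PCL1*) to 1743 bases (*CLN3*), and positions in the count table matched the RefSeq annotation of R64 for all 10. *CLB1* (chrVII:703636-705051) and *CLB6* (chrVII:705359-706501) are neighbours that are transcribed toward each other, with 307 bases between them, and *CLB2* (chrXVI:771653-773128) and *CLB5* (chrXVI:773875-775182) are neighbours of the same kind, with 746 bases between them. The others are on separate chromosomes or far apart: *CLN1* at chrXIII:662644-664284, *CLN2* at chrXVI:64977-66614, *CLN3* at chrI:65778-67520, *CLB3* at chrIV:176773-178056, *CLB4* at chrXII:562008-563390, and *PCL1* at chrXIV:87897-88736. No stretch of 51 bases of any of the 10 matched another ORF with at most 1 mismatch, so reads of the length used could not be shared among related cyclins. No feature overlapped a cyclin gene on the same strand. Unstable antisense transcripts overlap *CLN3* and *CLB5*, with at most 6 and 26 counts per library.

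Total counts ranged from 6027147 to 35027485 per library, and the 10 cyclin genes together had 3619 to 21598 counts per library, or 0.0565 to 0.0689% of the ORF counts. Each plasmid gene was 2.43- to 4.52-fold higher in its own strain than in the other 16 libraries, with no overlap. All pairs of libraries of a strain differed by more than the counting error (chi-square per degree of freedom 5.10 to 98.9), so each counted as a separate sample. Levels are given as CPM, read counts scaled to the ORF total of the library after TMM normalization, and a gene was called when its p from edgeR's quasi-likelihood test, adjusted over the 5772 ORFs by Benjamini and Hochberg's method, was below 0.01. The replicates were samples of pooled colonies of 1 strain each, so the p-values measure the spread between such samples.

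Levels of different genes can be compared only per length of coding region. On that scale, *CLN3* had the highest level in every strain, with strain means of 107 to 157 CPM per kb. *PCL1* had 45.2 to 78.7 and *CLN1* 50.8 to 79.0 CPM per kb, and their ranges of strain means overlap. *CLB1* had strain means of 17.4 to 63.4 CPM per kb, and in the *HEK2* strain its mean (63.4 CPM per kb) was above those of *CLN1* (52.2) and *PCL1* (45.2). *CLB3* had 39.4 to 43.0, *CLB2* 23.4 to 38.4, *CLN2* 16.9 to 26.9, and *CLB5* 21.2 to 23.6 CPM per kb. *CLB4* (9.87 to 11.5 CPM per kb) and *CLB6* (4.63 to 7.50 CPM per kb) had the lowest levels. The lowest count of any cyclin gene was 35, of *CLB6* in *TOS8* replicate 1 (95% exact Poisson interval 24.4 to 48.7, counting error only), and the 9 others had at least 85 counts in each library.

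The first question was whether the strains differed in any cyclin mRNA. In the joint test of the 5 strains, 7 of the 10 genes were called, against 58.5% of all tested ORFs: *CLB1*, *CLN1*, *CLN2*, *PCL1*, *CLN3*, *CLB2*, and *CLB6*. *CLB6* was not called, which left 6 genes, with TMM over all features and without any of the 4 *TOS8* libraries, *SFL1* replicate 3 or 4, *HEK2* replicate 2, 3, or 4, or *ROF1* replicate 1 or 2. The 3 genes not called were *CLB3* (adjusted p = 0.137), *CLB4* (adjusted p = 0.0818), and *CLB5* (adjusted p = 0.160, edgeR). *CLB1* stood out, with F = 66.4, the rank of 37 among 5772 ORFs, and an adjusted p of 2.1e-09, while the other called genes had F of 5.36 to 13.4. The highest strain mean of CPM exceeded the lowest 3.64-fold for *CLB1*, 1.74-fold for *PCL1*, 1.64-fold for *CLB2*, 1.62-fold for *CLB6*, 1.59-fold for *CLN2*, 1.55-fold for *CLN1*, and 1.48-fold for *CLN3*. For *CLB4*, *CLB5*, and *CLB3* it was 1.17-, 1.11-, and 1.09-fold, below the median over all tested ORFs of 1.28-fold.

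**Figure D1:**
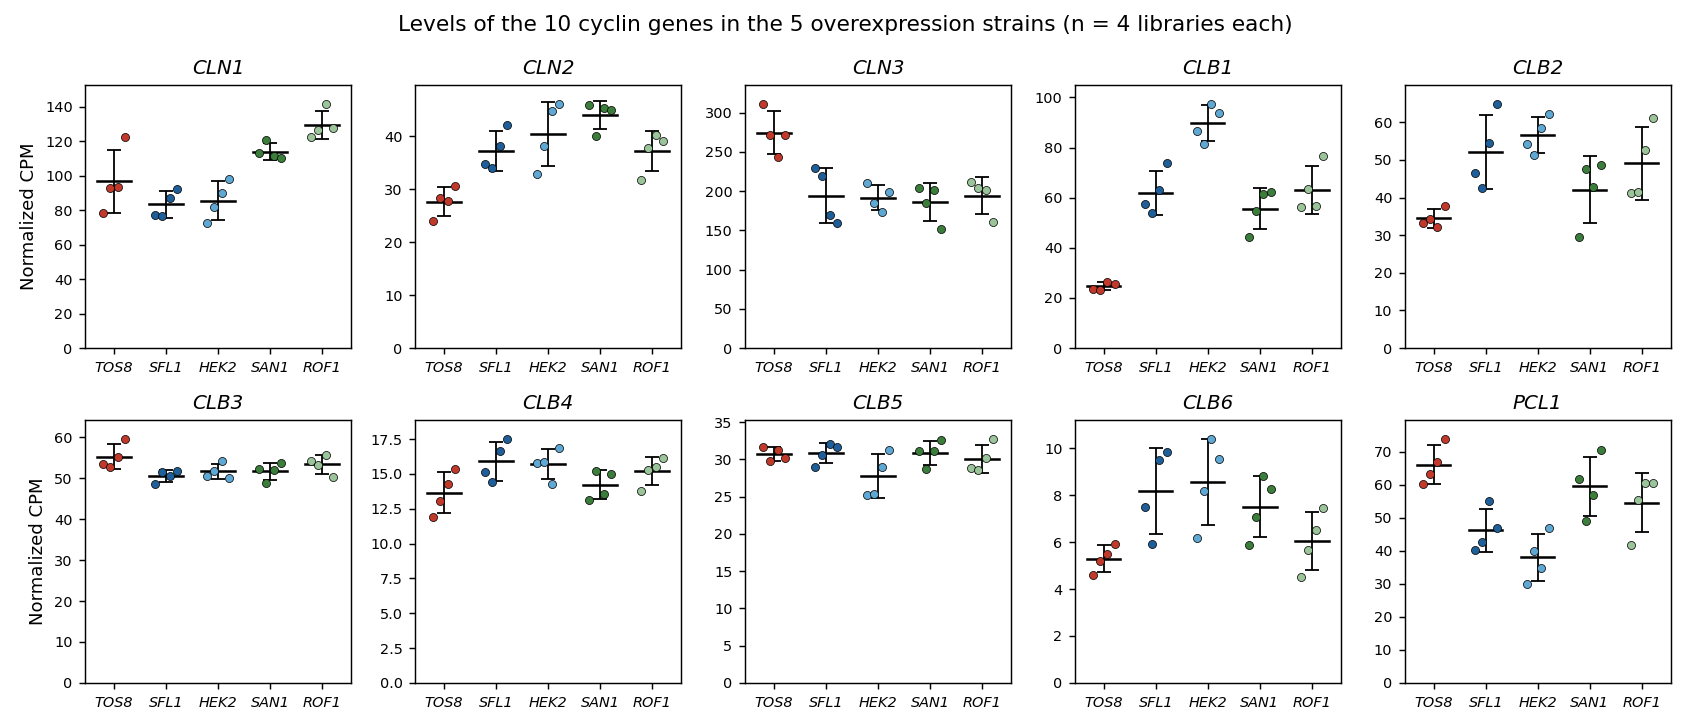
Normalized CPM (y axis, from 0, a separate scale per gene) of the 10 cyclin genes in the *TOS8*, *SFL1*, *HEK2*, *SAN1*, and *ROF1* strains. Points are the 4 libraries of a strain in the order of their replicate numbers, and lines and bars are means and SD. *CLB1* is lowest in all 4 *TOS8* libraries (23.1 to 26.5 CPM) and highest in all 4 *HEK2* libraries (81.4 to 97.2 CPM), while *CLB3* and *CLB5* are nearly level across the strains.

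Compared with the mean of the other 4 strains, the *TOS8* strain had lower mRNA of 4 cyclins, *CLB1*, *CLB2*, *CLN2*, and *CLB6*, and higher mRNA of 2, *CLN3* and *PCL1*. Of all tested ORFs, 23.7% were called lower and 24.5% higher in this comparison. The 4 genes not called, *CLN1*, *CLB3*, *CLB4*, and *CLB5*, had log2 fold changes of -0.14 to 0.10. The median of the 10 log2 fold changes was -0.10, and that of all tested ORFs was -0.01.

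*CLN3* encodes the cyclin that starts the G1 program. Its level was 311, 272, 243, and 272 CPM in the *TOS8* libraries, against 152 to 230 CPM (median 200.2) in the 16 libraries of the other strains. The *TOS8* libraries were thus all above the others. This was a log2 fold change of 0.52 (SE 0.09), or 1.43-fold (adjusted p = 5.0e-05, edgeR). The other 4 strains had means between 186 and 194 CPM, and their libraries overlap in each step of the order *ROF1*, *SFL1*, *HEK2*, *SAN1*.

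*CLN2* moved the other way. It had 24.0, 28.4, 27.7, and 30.6 CPM in the *TOS8* libraries, against 31.8 to 46.0 CPM (median 39.6) in the other 16 libraries, again without overlap. Its log2 fold change was -0.50 (SE 0.08; adjusted p = 2.6e-05, edgeR). Strain means of the others were 44.0 CPM in *SAN1*, 40.4 in *HEK2*, 37.3 in *ROF1*, and 37.3 in *SFL1*, and neighbours in this order overlap.

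*CLN1*, the closest relative of *CLN2*, did not pass the test in the *TOS8* strain. Its level was 78.6, 92.8, 93.4, and 122 CPM in the *TOS8* libraries, against 72.3 to 141 CPM (median 104) in the other 16 libraries (log2 fold change -0.06, SE 0.08; adjusted p = 0.56, edgeR). It divided the other strains instead. The *SFL1* libraries had 77.0, 76.7, 87.3, and 92.5 CPM and the *HEK2* libraries 72.3, 81.7, 90.2, and 98.3 CPM, against 114, 121, 112, and 110 CPM in the *SAN1* libraries and 123, 127, 141, and 128 CPM in the *ROF1* libraries. All 8 libraries of *SFL1* and *HEK2* were below all 8 of *SAN1* and *ROF1*. The log2 fold change was -0.53 (SE 0.08), or 1.44-fold lower (adjusted p = 1.8e-05, edgeR). The *SAN1* libraries were also all below the *ROF1* libraries, but this difference did not pass the test (log2 fold change -0.18, SE 0.11; adjusted p = 0.35, edgeR).

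Of the S phase cyclins, *CLB6* was called in the *TOS8* strain and *CLB5* was not. *CLB5*, the main S phase cyclin, had strain means of 27.7 (*HEK2*) to 30.9 CPM (*SAN1*) and all its neighbours in the order overlapped. In the *TOS8* libraries it had 31.7, 29.7, 31.3, and 30.1 CPM, against 25.3 to 32.7 CPM (median 30.4) in the other 16 libraries (log2 fold change 0.04, SE 0.05; adjusted p = 0.53, edgeR).

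*CLB6*, its paralog, had 4.58, 5.18, 5.48, and 5.94 CPM in the *TOS8* libraries, against 4.53 to 10.4 CPM (median 7.48) in the other 16 libraries. The groups overlap through the *ROF1* strain, whose libraries had 4.53, 5.66, 6.52, and 7.46 CPM. The log2 fold change was -0.45 (SE 0.14; adjusted p = 0.0094, edgeR), just past the threshold. The call was lost in 17 of 26 other settings, with each *TOS8* library left out, with TMM over all features, and without the filter among them (adjusted p from 7.4e-05 to 0.035). *CLB6* has the fewest counts of the 10 genes.

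*CLB1* showed the largest difference of any cyclin in the *TOS8* strain. It had 23.6, 23.1, 26.5, and 25.5 CPM in the *TOS8* libraries, against 44.5 to 97.2 CPM (median 62.6) in the other 16 libraries, so the groups are far apart. This gave a log2 fold change of -1.42 (SE 0.10), or 2.68-fold lower (adjusted p = 5.7e-10, edgeR). *CLB2*, its partner in mitosis, had 33.3, 34.4, 32.3, and 37.9 CPM in the *TOS8* libraries, against 29.4 to 64.8 CPM (median 49.98) in the other 16. For *CLB2* the groups overlap only through *SAN1* replicate 1 (29.4 CPM), the lowest library of all. For *CLB2* the log2 fold change was -0.52 (SE 0.12), or 1.43-fold lower (adjusted p = 9.3e-04, edgeR).

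*CLB1* also differed among the other strains. In the *HEK2* libraries it had 86.7, 81.4, 97.2, and 94.0 CPM. The *SFL1* libraries had 57.6, 53.7, 63.0, and 74.0 CPM, the *SAN1* libraries 44.5, 54.5, 61.5, and 62.2 CPM, and the *ROF1* libraries 56.2, 63.5, 56.6, and 76.5 CPM. The *HEK2* libraries were thus above every other library, and *ROF1*, *SFL1*, and *SAN1* followed with overlapping libraries. *CLB1* was the only cyclin gene called between *SFL1* and *HEK2* (log2 fold change -0.53, SE 0.11; adjusted p = 0.0035, edgeR), where 3.33% of all ORFs were lower and 0.988% higher in *SFL1*. This call was lost without *SFL1* replicate 1, *SFL1* replicate 2, or *HEK2* replicate 3 (largest adjusted p = 0.018), while the libraries did not overlap.

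The mitotic cyclins *CLB3* and *CLB4* passed the test in none of the 4 comparisons. *CLB3* had 53.6, 52.7, 55.2, and 59.5 CPM in the *TOS8* libraries, against 48.6 to 55.6 CPM (median 51.8) in the other 16 libraries (log2 fold change 0.10, SE 0.04; adjusted p = 0.042, edgeR). *CLB4* had 11.9, 13.1, 14.2, and 15.3 CPM in the *TOS8* libraries, against 13.1 to 17.5 CPM (median 15.2) in the other 16 libraries (log2 fold change -0.14, SE 0.07; adjusted p = 0.064, edgeR). For both genes, neighbouring strains overlapped at every step of their orders.

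*PCL1*, the G1 cyclin of Pho85, had 60.4, 63.3, 67.0, and 73.9 CPM in the *TOS8* libraries, against 30.1 to 70.5 CPM (median 48.1) in the other 16 libraries. The overlap came from the *SAN1* and *ROF1* strains, since the highest *SFL1* library had 55.0 CPM and the highest *HEK2* library 47.0 CPM. The log2 fold change was 0.44 (SE 0.10), or 1.35-fold higher (adjusted p = 0.0011, edgeR).

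A second comparison set the *SFL1* and *HEK2* strains against *SAN1* and *ROF1*. Here 3 of the 10 genes were called: *CLN1* and *PCL1* were lower and *CLB1* was higher in *SFL1* and *HEK2*, against 11.7% of all ORFs called lower and 11.8% higher. *PCL1* had 40.3, 42.7, 55.0, and 47.0 CPM in the *SFL1* libraries and 30.1, 40.0, 34.9, and 47.0 CPM in the *HEK2* libraries. It had 61.6, 49.1, 56.9, and 70.5 CPM in the *SAN1* libraries and 41.7, 55.4, 60.6, and 60.5 CPM in the *ROF1* libraries. The groups overlap, and the log2 fold change was -0.43 (SE 0.10; adjusted p = 0.0017, edgeR). The log2 fold change of *CLB1* was 0.34 (SE 0.08; adjusted p = 0.0019, edgeR), with overlap, and its higher mean came from the *HEK2* strain (89.8 CPM ± 7.14, SD, n = 4), as the *SFL1* mean (62.1 CPM ± 8.79) was close to the *ROF1* mean (63.2 CPM ± 9.52). *CLB2* and *CLB6* had log2 fold changes of 0.27 (SE 0.10, adjusted p = 0.044) and 0.34 (SE 0.13, adjusted p = 0.037, edgeR) and did not pass. Both passed when the replicate number was added to the fit as a block (adjusted p = 0.0070 and 0.0041, edgeR), though nothing states what these numbers share.

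Between *SAN1* and *ROF1*, 0 of the 10 genes were called with edgeR's quasi-likelihood test, and 0 with its likelihood ratio test or DESeq2. Only *CLN2* had an unadjusted p below 0.05 (44.0 CPM ± 2.68 in *SAN1* and 37.3 CPM ± 3.78 in *ROF1*, SD, n = 4 each; adjusted p = 0.20). Of all ORFs, 0.26% were called higher and 0.0347% lower in *SAN1*, so calls were rare in this comparison.

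**Figure D2:**
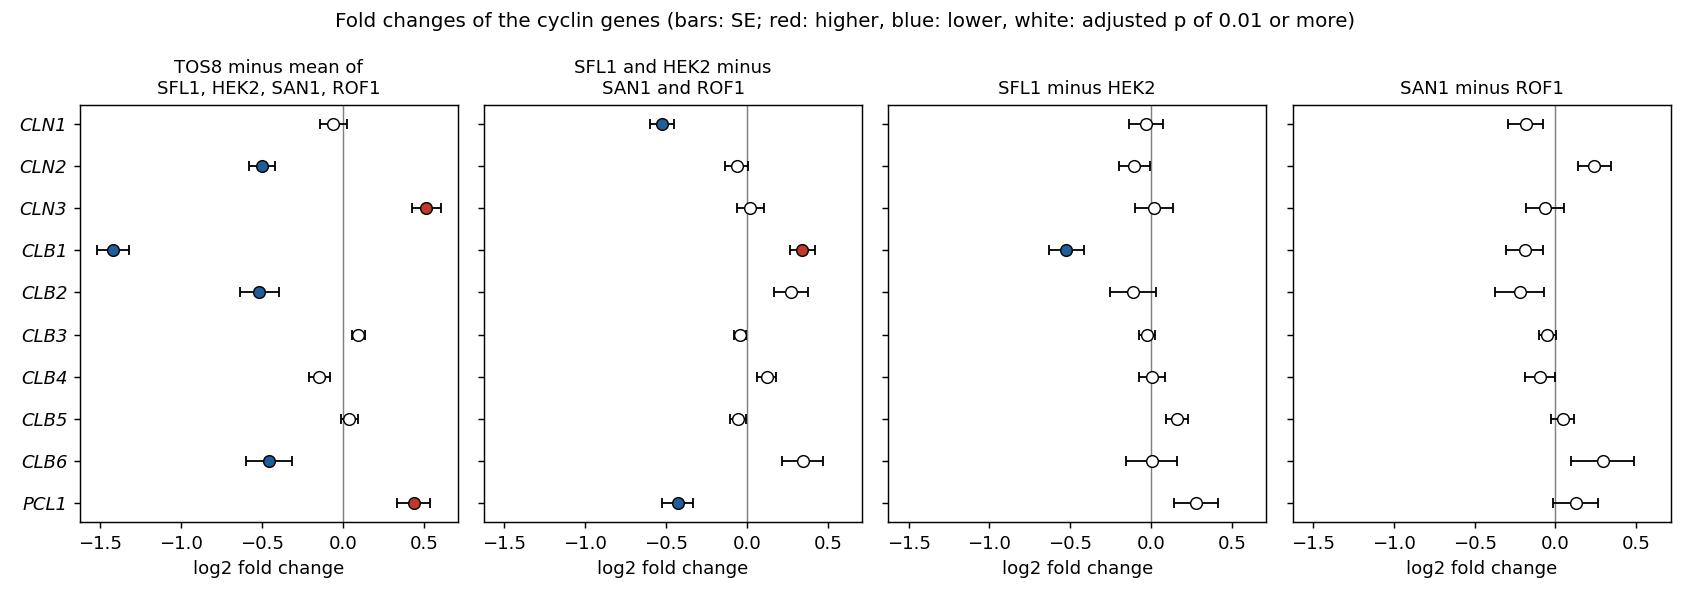
Log2 fold changes (x axis, common scale) of the 10 cyclin genes in the 4 comparisons, with bars of 1 SE from the fit of 20 libraries; red points are genes called higher in the group named first, blue points genes called lower, and white points genes not called. The *TOS8* panel holds 6 called genes with *CLB1* farthest from 0 (-1.42), and the *SAN1* panel holds none.

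The ratio within pairs of related cyclins varied among the strains. Per length, *CLB2* exceeded *CLB1* in the *TOS8* strain, with a ratio of 1.34 ± 0.12 (SD, n = 4; 1.17 to 1.43). In all 16 other libraries *CLB1* exceeded *CLB2*, with ratios of *CLB2* over *CLB1* of 0.577 to 0.893, and the lowest mean was that of *HEK2* (0.605 ± 0.024). The ratio of *CLN1* over *CLN2* was 3.47 ± 0.35 in *TOS8*, 2.24 ± 0.04 in *SFL1*, 2.12 ± 0.08 in *HEK2*, 2.60 ± 0.28 in *SAN1*, and 3.49 ± 0.26 in *ROF1*. It was thus alike in *TOS8* and *ROF1*, though through different genes: *CLN2* was lowest in *TOS8* and *CLN1* was highest in *ROF1*. The ratio of *CLB5* over *CLB6* was 5.12 ± 0.67 in *TOS8*, against means of 2.90 (*HEK2*) to 4.46 (*ROF1*) in the other strains, and that of *CLB3* over *CLB4* was 4.38 ± 0.31 in *TOS8*, against means of 3.44 (*SFL1*) to 3.93 (*SAN1*). The ratio of *CLN1* over *CLB1*, a G1 cyclin over a mitotic one, was 3.38 ± 0.56 in *TOS8*, 1.17 ± 0.07 in *SFL1*, 0.822 ± 0.080 in *HEK2*, 1.80 ± 0.32 in *SAN1*, and 1.80 ± 0.30 in *ROF1*. These ratios follow from the levels above and were not tested separately.

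**Figure D3:**
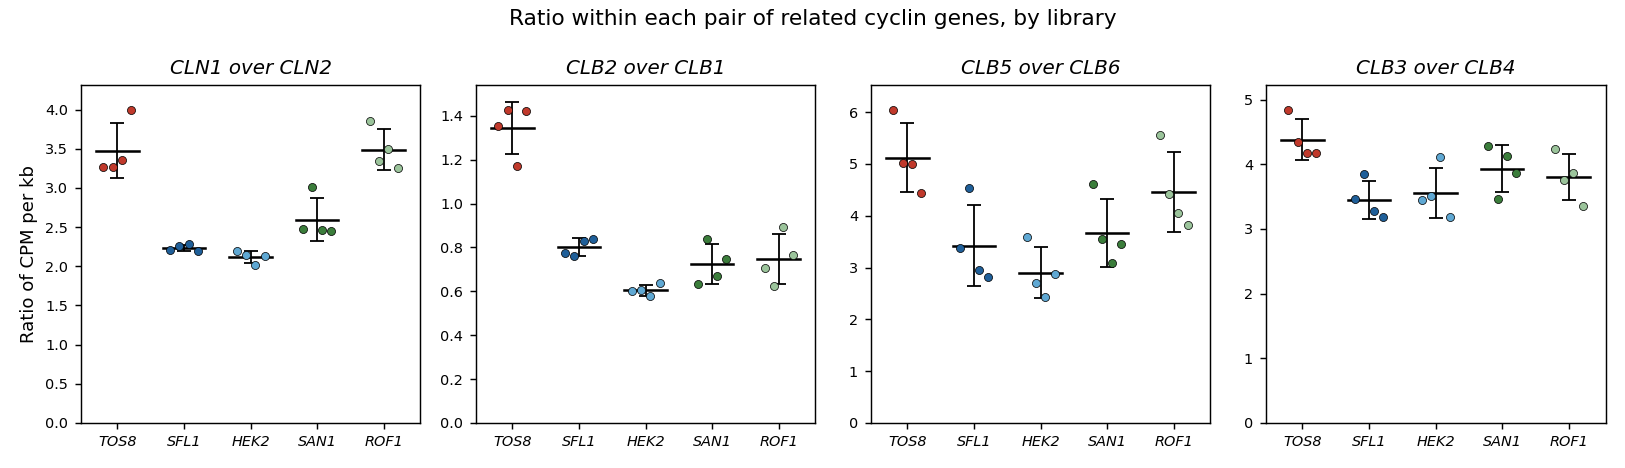
Ratio of CPM per kb (y axis, from 0, a separate scale per pair) within 4 pairs of related cyclin genes in the *TOS8*, *SFL1*, *HEK2*, *SAN1*, and *ROF1* strains. Points are the 4 libraries of a strain and lines and bars are means and SD; only in the *TOS8* libraries (1.17 to 1.43) is *CLB2* above *CLB1*.

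Several cyclins also varied together within strains. After subtracting the mean of each strain, log2 CPM of *CLB1* correlated with that of *CLB2* at r = 0.80 and with that of *CLB6* at r = 0.78, and *CLN2* correlated with *CLN1* at r = 0.79 and with *CLB6* at r = 0.80 over the 20 libraries. *CLN3* went the opposite way, with r = -0.72 against *CLB1*, -0.70 against *CLB6*, and -0.67 against *CLB2*. *CLB3* correlated little with the other mitotic cyclins (-0.04 to 0.06). The points share their libraries, and so their depth and normalization, and are given as a description. The 5 ORFs outside the 10 genes with the pattern most like *CLB1* over the 20 libraries were *EDE1* (r = 0.97), an endocytosis protein, *ALG12* (0.97) and *OST3* (0.96), which act in N-glycosylation, *AVT7* (0.96), a vacuolar transporter, and *UTR2* (0.96), a cell wall enzyme. *UTR2* had strain means of 63.6 CPM in *TOS8*, against 166.8 in *SFL1*, 252 in *HEK2*, 194 in *SAN1*, and 181 in *ROF1*. Its lowest and highest means were in the same strains as those of *CLB1*, but it was chosen by this likeness, so that is no separate result.

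The partners and regulators of the cyclins were described from lists. Each count of called genes below is to be read beside the shares of all tested ORFs. In *TOS8* 24.5% were called higher and 23.7% lower, and in the second comparison 11.8% higher and 11.7% lower. No list was tested as a set. Of *CDC28*, its direct regulators, and its inhibitors, 4 of 7 were called in the *TOS8* comparison, 2 higher and 2 lower. *CDC28* itself averaged 51.05 CPM in *TOS8*, against 40.2 to 46.8 CPM in the other strains (log2 fold change 0.23, SE 0.05), and *SIC1*, the inhibitor that holds back the Clb kinases, averaged 68.9 CPM, against 48.6 to 53.6 CPM (0.44, SE 0.05). *FAR1*, which inhibits the Cln kinases in response to pheromone, was called lower against the mean of the others (-0.41, SE 0.12), although its mean was 10.01 CPM in *TOS8* and 9.47 CPM in *SFL1*, and this call was lost in 12 of 26 other settings. *SWE1*, the kinase that restrains Cdc28 before mitosis, was called lower against the mean of the others (-0.22, SE 0.06), a call lost without *TOS8* replicate 1, 2, or 3. The *SWE1* mean was however 35.5 CPM in *TOS8* and 36.3 CPM in *HEK2*, against 42.3 to 45.7 CPM in *SFL1*, *SAN1*, and *ROF1*. In *SFL1* and *HEK2* against *SAN1* and *ROF1*, *FAR1* was the only one of the 7 called (-0.57, SE 0.11).

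Of the 9 regulators of G1/S transcription, 3 were called higher and 3 lower in *TOS8*. *WHI5*, the inhibitor of SBF that Cln3 counters, averaged 7.76 CPM in *TOS8*, against 4.23 to 6.22 CPM in the other strains (log2 fold change 0.58, SE 0.12), and *BCK2*, an activator of G1 genes that works beside Cln3, averaged 66.3 CPM, against 40.5 to 47.1 CPM (0.58, SE 0.06), and *STB1* was the third called higher. *NRM1*, a corepressor of MBF, was lower (-0.72, SE 0.10), and so were *YHP1*, a repressor of early cell cycle genes (-0.41, SE 0.12), and *SWI4*, the DNA-binding part of SBF (-0.27, SE 0.06). The *YHP1* call was lost in 4 of 26 other settings. *SWI6* (-0.07) and *MBP1* (0.08) did not pass. In the second comparison *NRM1* alone was called, higher in *SFL1* and *HEK2* (0.36, SE 0.08).

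Of 15 other targets of SBF and MBF, 7 were called lower and 2 higher in *TOS8*, with a median log2 fold change of -0.13. The lower calls of *CDC45*, *SMC3*, *MCD1*, and *POL2* were lost in 12, 3, 2, and 1 of 26 other settings. *SMC3* averaged 27.2 CPM in *TOS8* and 25.9 CPM in *HEK2*. *RNR1*, the large subunit of ribonucleotide reductase, averaged 192 CPM in *TOS8*, against 251 to 354 CPM in the other strains (-0.61, SE 0.08), and *CDC9*, DNA ligase, was also lower (-0.35, SE 0.05). *SVS1*, a cell wall protein (0.32, SE 0.08), and *CDC21*, thymidylate synthase (0.28, SE 0.06), were called higher against the mean of the others. The *SVS1* mean was however 163.8 CPM in *TOS8*, below that in *ROF1* (188 CPM). The *CDC21* mean was 35.8 CPM in *TOS8* and 34.2 CPM in *SAN1*. In *SFL1* and *HEK2* against *SAN1* and *ROF1*, 7 of the 15 were lower and 0 higher, with a median of -0.16. Of these, the calls of *CDC9* and *SMC3* were lost in 18 and 11 of 27 other settings. *SVS1* averaged 112 CPM in *SFL1* and 90.6 CPM in *HEK2*, against 156 CPM in *SAN1* and 188 CPM in *ROF1* (-0.77, SE 0.08), and *TOS4*, a G1/S transcription regulator, was lower by less (-0.23, SE 0.05). In this comparison *SVS1* was thus lower as were *CLN1* and *PCL1*. *SMC3*, a cohesin subunit of the same list, was higher in *SFL1* than in *HEK2* (33.5 and 25.9 CPM), the only one of the 15 called there. Its *SFL1* mean was close to those of *SAN1* (33.6 CPM) and *ROF1* (32.7 CPM), so its lower mean in the second comparison came from *HEK2*.

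The CLB2 cluster, genes that are usually expressed with *CLB1* and *CLB2*, had 5 of 12 genes called lower and 0 higher in *TOS8*, with a median log2 fold change of -0.16. *CDC5*, the polo kinase, averaged 37.0 CPM in *TOS8*, against 49.8 to 59.8 CPM in the other strains (-0.58, SE 0.07), and *MYO1*, the myosin of the contractile ring, averaged 18.0 CPM, against 21.5 to 26.9 CPM (-0.45, SE 0.06). The other 3 were *CHS2*, *ALK1*, and *BUD4*. None of the 12 had a log2 fold change as large as the -1.42 of *CLB1*. In *SFL1* and *HEK2* against *SAN1* and *ROF1*, 3 of the 12 were higher and 0 lower, with a median of 0.20. They were *CHS2*, chitin synthase of the septum (0.27, SE 0.06), *DBF2*, a kinase of mitotic exit (0.22, SE 0.06), and *MYO1*, and the calls of *DBF2* and *MYO1* were lost in 16 and 12 of 27 other settings.

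Of 7 regulators of G2/M and M/G1 transcription, 3 were called higher in *TOS8* and 0 lower. *MCM1*, which binds at *CLB1* and *CLB2* with the forkhead factors, averaged 95.2 CPM, against 52.6 to 69.2 CPM in the other strains (log2 fold change 0.65, SE 0.05), and *NDD1*, the coactivator, averaged 70.6 CPM, against 45.8 to 55.8 CPM (0.47, SE 0.07). The third gene called was *FKH2*, the forkhead factor of the CLB2 cluster, a call lost in 10 of 26 other settings. *MCM1* was lower in *SFL1* and *HEK2* than in *SAN1* and *ROF1* (-0.30, SE 0.05), the only one of the 7 called there.

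**Figure D4:**
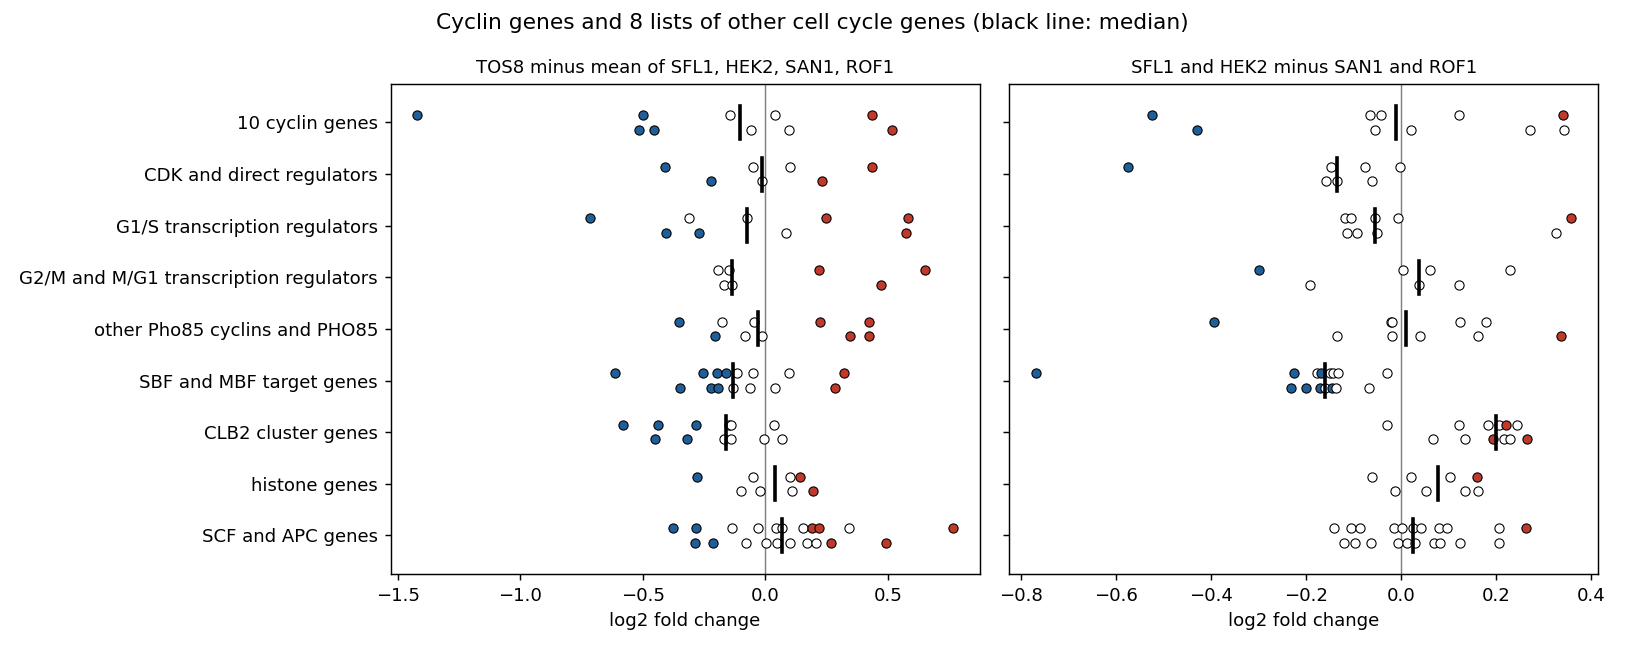
Log2 fold changes (x axis, a separate scale per panel) of the 10 cyclin genes and of 8 lists of other cell cycle genes in *TOS8* against the mean of the other strains and in *SFL1* and *HEK2* against *SAN1* and *ROF1*. Each point is a gene, red where called higher, blue where called lower, and white where not called, and the vertical shift of points only separates them. The CLB2 cluster has 5 genes called lower in the left panel and 3 called higher in the right one.

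Other cyclins of Pho85 were called in both directions in *TOS8*. Of *PHO85* and its 9 other cyclins, 4 were higher and 2 lower. *PCL2*, the close relative of *PCL1*, averaged 28.3 CPM in *TOS8*, against 18.2 to 24.5 CPM in the other strains (log2 fold change 0.42, SE 0.08), and was lower in *SFL1* and *HEK2* than in *SAN1* and *ROF1* (-0.39, SE 0.07), the same directions as *PCL1*. *PCL5*, a cyclin of amino acid control, was called higher in *TOS8* against the mean of the others (0.42, SE 0.08). Its mean was however 159.6 CPM in *TOS8* and 160.1 CPM in *HEK2*. *PCL5* was also called higher in *SFL1* and *HEK2* than in *SAN1* and *ROF1* (0.34, SE 0.07), and lower in *SFL1* than in *HEK2* (112 and 160 CPM). The higher mean in the former comparison came from *HEK2*, as the *SFL1* mean was close to those of *SAN1* (108.1 CPM) and *ROF1* (103.4 CPM). *PHO80*, the cyclin of phosphate control, was lower in *TOS8* (-0.35, SE 0.08), as was *CLG1* (-0.20, SE 0.05), and *PCL10* and *PCL7* were the other 2 called higher, the *PCL7* call being lost in 16 of 26 other settings.

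The SCF and APC ubiquitin ligases mark cyclins and their inhibitors for destruction. Among 21 of their genes, 5 were higher and 4 lower in *TOS8*, against 24.5% and 23.7% of all tested ORFs. *CDC26*, an APC subunit, averaged 26.5 CPM in *TOS8*, against 14.4 to 16.03 CPM in the other strains (0.77, SE 0.13), and *CDC34*, the conjugating enzyme of SCF, averaged 222 CPM, against 149 to 164.9 CPM (0.49, SE 0.06). *APC4* (-0.38, SE 0.07) and *CDC53*, the SCF cullin (-0.29, SE 0.05), were lower. Also called were *CDC16*, *APC9*, and *APC11* among the higher and *APC1* and *APC5* among the lower genes, and the calls of *APC9* and *APC11* were lost in 5 and 14 of 26 other settings, each *TOS8* library left out among them. Only *APC9* of the 21 was called in the second comparison, higher in *SFL1* and *HEK2* (0.26, SE 0.06). Of the 8 histone genes, which are transcribed in S phase, 2 were called higher in *TOS8* (*HHT1* and *HTB1*, 0.20 and 0.14) and 1 lower (*HTA2*, -0.28, SE 0.06), and the *HTB1* call was lost in 16 of 26 other settings. *HTA1* was the only histone gene called in *SFL1* and *HEK2* (0.16, SE 0.04).

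Markers of mating type moved with the same comparisons. F45 is *MAT*a, and of 5 genes of *MAT*a cells, 4 were called lower in *TOS8* against the mean of the others. The fifth, *MFA1*, had a log2 fold change of 0.20 (adjusted p = 0.013, edgeR) and did not pass. All 5 were called lower in *SFL1* and *HEK2* than in *SAN1* and *ROF1*, and of these the *STE6* call was lost in 9 of 27 other settings. Their summed level was 344 to 421 CPM in *TOS8* libraries, 406 to 454 CPM in *SFL1*, 449 to 573 CPM in *HEK2*, 621 to 759 CPM in *SAN1*, and 615 to 815 CPM in *ROF1*. *STE2*, the receptor for the other mating type, averaged 140 CPM in *TOS8*, against 200 to 261 CPM in the other strains. *BAR1*, a protease that degrades pheromone, averaged 12.3 CPM in *SFL1* and 15.0 CPM in *HEK2*, against 26.8 CPM in *SAN1* and 27.2 CPM in *ROF1*. The *BAR1* mean in *TOS8* was 11.6 CPM, close to that in *SFL1*. *MFA2* averaged 149.8 CPM in *TOS8*, above its *SFL1* mean of 143.5 CPM, against 199 to 338 CPM in the remaining strains. Of 4 genes of *MAT*α cells, *MFALPHA2* did not pass the filter and *MFALPHA1*, the pheromone gene that defines these cells, had strain means of 2.29 to 4.53 CPM. In *SFL1* and *HEK2* against *SAN1* and *ROF1*, *MFALPHA1* (-0.88, SE 0.14) and *STE3* (-0.61, SE 0.06) were called lower and *SAG1* higher (0.21, SE 0.05). The *SAG1* call was lost in 8 of 27 other settings. *SAG1* averaged 70.7 CPM in *HEK2*, while its *SFL1* mean (58.4 CPM) was close to those of *ROF1* (57.3 CPM) and *SAN1* (54.5 CPM). In *TOS8* only *SAG1* of the 3 was called, lower (-0.28, SE 0.06). The summed level of the 4 was 74.9 to 80.0 CPM in *TOS8*, 76.3 to 84.4 CPM in *SFL1*, 86.0 to 101 CPM in *HEK2*, 83.2 to 94.1 CPM in *SAN1*, and 80.4 to 97.7 CPM in *ROF1*, mostly from *STE3* and *SAG1*. The part of these genes in the cyclin differences was not tested.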

How the data were processed

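The libraries were stranded mRNA libraries (TruSeq) of 20 samples from 5 strains, sequenced as paired reads of 51 nucleotides. The authors aligned reads with Bowtie2 (version 2.1.0) to the R64 reference extended with ncRNAs and F45 genes, and deposited raw counts of read pairs per feature from featureCounts (version 1.4.0), counted by strand, neither normalized nor filtered by mapping quality. The feature lengths in bases deposited with these counts (an annotation of the features, no measurement) were used for CPM per kb. Groups and replicate numbers came from the sample labels.

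Of 12131 features, the 6575 ORFs were analysed, and the 5772 with a median of at least 1 CPM were tested. A model of all 20 libraries, with a coefficient for each strain, was fitted in edgeR (version 4.0.16, limma 3.58.1, R 4.3.3), with TMM factors within ORFs, the quasi-likelihood test, and a Benjamini-Hochberg false discovery rate of 0.01. A joint test and 4 orthogonal contrasts were made. Log2 CPM for correlations used a prior count of 2. On simulated counts for the *TOS8* comparison, with 5772 ORFs, 45 of 50 changes of 0.6 and 40 of 50 changes of 0.4 on the log2 scale were recovered, with 2 false calls among 5572 unchanged ORFs. Only 200 ORFs were changed there, the other 4 strains were given equal levels, and the spread was that of the fit. Far more ORFs were called in the real data, so these figures do not measure recovery or false calls there. Library totals were 6027147 to 35027485 counts.

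The cyclin genes and the lists were chosen with earlier results of these data known. Genes named from the lists were *CDC28*, *SIC1*, *FAR1*, *SWI4*, *SWI6*, *MBP1*, and *WHI5*, and in each list and comparison up to 2 called genes with the largest rise and up to 2 with the largest fall. Names completing a count of 5 or fewer (such as *FKH2*, *STB1*, *PCL7*, and *APC1*) were added after their values were seen. So were names of some calls lost in other settings (such as *CDC45* and *MCD1*). The 5 ORFs most like *CLB1* were taken by Pearson's r of log2 CPM. Motifs were searched in R64 windows upstream of 6556 ORFs. Alternatives were other normalizations, the likelihood ratio test, DESeq2 (version 1.42.0), no filter, a false discovery rate of 0.05, only the libraries compared, a replicate block, and leaving out each library.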

Additional observations from a re-analysis of the deposited data

Results flagged for a closer look

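*CLN2* in the *SAN1* strain had 1 library apart from the rest: *SAN1* replicate 2 had 40.1 CPM, below the nearest library at 44.9 CPM, and this gap made up 0.833 of the range of the 4 libraries, just above Dixon's critical value for 4 samples. It was the only one of the 50 combinations of a cyclin gene and a strain to do so, which chance passes in about 1 of 20 groups.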

How the results depend on the processing

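Of the 10 calls of a cyclin gene in a comparison of strains, 8 held in each of the 26 or 27 other settings. The exceptions were *CLB6* in the *TOS8* strain, lost in 17, and *CLB1* between *SFL1* and *HEK2*, lost in 3. No call of a cyclin gene changed its direction. In *SFL1* and *HEK2* against *SAN1* and *ROF1*, 5 cyclin genes were called at a false discovery rate of 0.05 and 5 with the replicate block, in place of 3, with *CLB2* and *CLB6* added in both. The share of all tested ORFs called in this comparison also rose at the rate of 0.05, and changed little with the block. In *TOS8*, *CLB3* was added at the rate of 0.05 (adjusted p = 0.042, edgeR). Between *SFL1* and *HEK2* the count of called cyclin genes was 0 to 1 when a library was left out. Values that did not pass changed sign for *CLN1* in *TOS8* (-0.19 to 0.020 with a library left out) and for *CLN3* in *SFL1* and *HEK2* against *SAN1* and *ROF1* (-0.025 to 0.062). The cause was not tested. Of the 77 calls of list genes in the comparisons of strains, mating type markers included, 50 held in each of the 26 or 27 other settings and none reversed. The joint test called 6 or 7 cyclin genes, without *CLB6* in 12 settings. With a library left out, *CDC28* and *CLG1* in *TOS8* were lost without *TOS8* replicate 2, *SVS1* without *TOS8* replicate 4, *STB1* without *TOS8* replicate 2 or 4, *ALK1* without *TOS8* replicate 2 or 3, *BUD4* without *TOS8* replicate 1, 2, or 3 (and with TMM over all features), *HHT1* without *TOS8* replicate 1, 3, or 4, *HTA1* in *SFL1* and *HEK2* without *SFL1* replicate 3, *SAN1* replicate 2, or *ROF1* replicate 2, and *PCL5* between *SFL1* and *HEK2* without *SFL1* replicate 3 or 4 or *HEK2* replicate 1 (adjusted p up to 0.041, edgeR). The block changed no other call of a cyclin gene. The replicate numbers were not taken to pair the samples, as nothing states what they share: same-numbered libraries of different strains deviated from their strain means with r of -0.09 to 0.29 (mean 0.11, above 0.1 in 6 of 10 strain pairs), and 8 of 20 libraries correlated best with their own number. *CLB6* had the fewest counts of the cyclin genes, as few as 35 in a library, and a CV between samples of 10.7 to 22.4% within strains.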
